A study of Mus musculus with 2 samples.

Results

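Hox and Pax genes encode DNA-binding regulators of the body plan, and 47 of them (38 Hox genes of the 4 clusters and 9 Pax genes) were looked up in the lists of H3K36me2 peaks from mouse colon. A gene counted as having a peak when at least 1 listed peak carried its name in the authors' nearest-gene annotation. Of the 47 genes, 13 had a peak in at least 1 library and 34 (72.3%) had none in either, against 56.7% of the 21896 protein-coding genes of a mouse gene table. The rule that names the 47 is gene family, with no value of the lists in it, though earlier results of these data were known when the families were picked. The background was all protein-coding genes of that table, of which the 47 are part.

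The lists come from CUT&Tag, in which the transposase Tn5 is brought by an antibody to a chromatin mark and tags the DNA around it. H3K36me2, a methyl mark on histone H3, is laid down by NSD2 and related enzymes. The data comprised 1 colon library of Nsd2 fl/fl mice, whose Nsd2 alleles carry loxP sites and are otherwise intact, and 1 of Nsd2 ΔIE mice, whose floxed alleles were deleted by a Cre under the Villin promoter. Both were fed the high-fat cholesterol diet HFCD, for 16 weeks by the design text of the series, and the study's methods, which give a longer time, describe male littermates on a C57BL/6J background. Villin-Cre acts in intestinal epithelium, so immune, stromal, muscle and nerve cells of the colon kept Nsd2 in both genotypes. The libraries were made from whole colon tissue, and how many animals went into each is not given in the sources used here. In such tissue, fewer cells with a mark and less mark in each cell cannot be told apart.

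The Nsd2 fl/fl list held 19976 peaks annotated to 12462 genes, and the Nsd2 ΔIE list held 23518 peaks annotated to 13595 genes. The median peak was 4643 bp wide in the Nsd2 fl/fl control and 3426 bp wide in Nsd2 ΔIE. Each peak carries a summed signal, a whole number with no stated scaling to sequencing depth, and the lowest value listed was 21783 in the Nsd2 fl/fl control and 16571 in Nsd2 ΔIE. A gene without a listed peak can therefore hold signal under the limit of its list, and the limits differ between the libraries. The number of reads is unknown. Since each genotype had 1 library, differences between genotypes have no replicates behind them and were not tested. At the targeted gene itself, Nsd2, the Nsd2 fl/fl list held 0 peaks and the Nsd2 ΔIE list 1, and a histone peak does not report whether the gene was deleted. Of 9 marker genes of colon epithelium, 4 had a peak in Nsd2 fl/fl (Vil1, Muc2, Cdx1 and Cdh1) and 6, these among them, in Nsd2 ΔIE. Of 6 immune markers 1 and 2 had a peak, of 6 markers of stroma and vessel 3 and 3, of 4 of smooth muscle 2 and 3, and of 5 of enteric neurons and glia 2 and 3. Their part in the values of the Hox and Pax genes was not tested.

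As background, the Hox genes lie in 4 clusters, HoxA to HoxD, in which the order of the genes follows the order of their use along the body axis. Low-numbered groups act in the hindbrain and neck, and high-numbered groups act in the trunk, limbs, hindgut and urogenital tract. Pax genes stand alone in the genome and guide the making of organs such as the eye, kidney, thyroid, skeletal muscle and the B cell lineage. Outside the cells that use them, both families are classic targets of Polycomb: Polycomb repressive complex 2 (PRC2) writes H3K27me3 and Polycomb repressive complex 1 (PRC1) compacts that chromatin. H3K36me2 is known to hinder PRC2, and these marks seldom lie on the same histone tail. The adult colon keeps part of its Hox code, above all posterior genes.

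In the Nsd2 fl/fl library, 6 of the 47 genes had a peak, a share of 12.8% (95% Wilson interval 5.98% to 25.2%), where the share of all protein-coding genes was 30.9%. In the Nsd2 ΔIE library, 10 of the 47 had a peak, 21.3% (12.0% to 34.9%), where the share of all was 32.9%. The intervals cover counting error only, and neighbouring genes of a cluster are not independent of each other. Of the 38 Hox genes, 5 (13.2%) had a peak in the Nsd2 fl/fl control and 4 (10.5%) in Nsd2 ΔIE. Of the 9 Pax genes, 1 (11.1%) had a peak in the Nsd2 fl/fl control and 6 (66.7%) in Nsd2 ΔIE. The Hox share thus lay under the background in both libraries, while the Pax share lay under it in one and above it in the other. The size of the Hox gap depended on which peaks were counted. With only peaks within 1 kb of a TSS, 4 of 38 Hox genes (10.5%) had one in the Nsd2 fl/fl control. Of all protein-coding genes 12.8% did, so the gap there was much smaller. For Nsd2 ΔIE the count was 2 of 38, where 11.6% of all did. The low Pax share depends on how peaks are named. When a peak was also counted for the gene whose exon or intron holds it, 3 of 9 Pax genes (33.3%) had one in the Nsd2 fl/fl control, where 34.3% of all protein-coding genes did, and 6 of 9 in Nsd2 ΔIE, where 37.0% did. A peak in both libraries was listed for Hoxa10, Hoxc4 and Pax8.

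**Figure D1:**
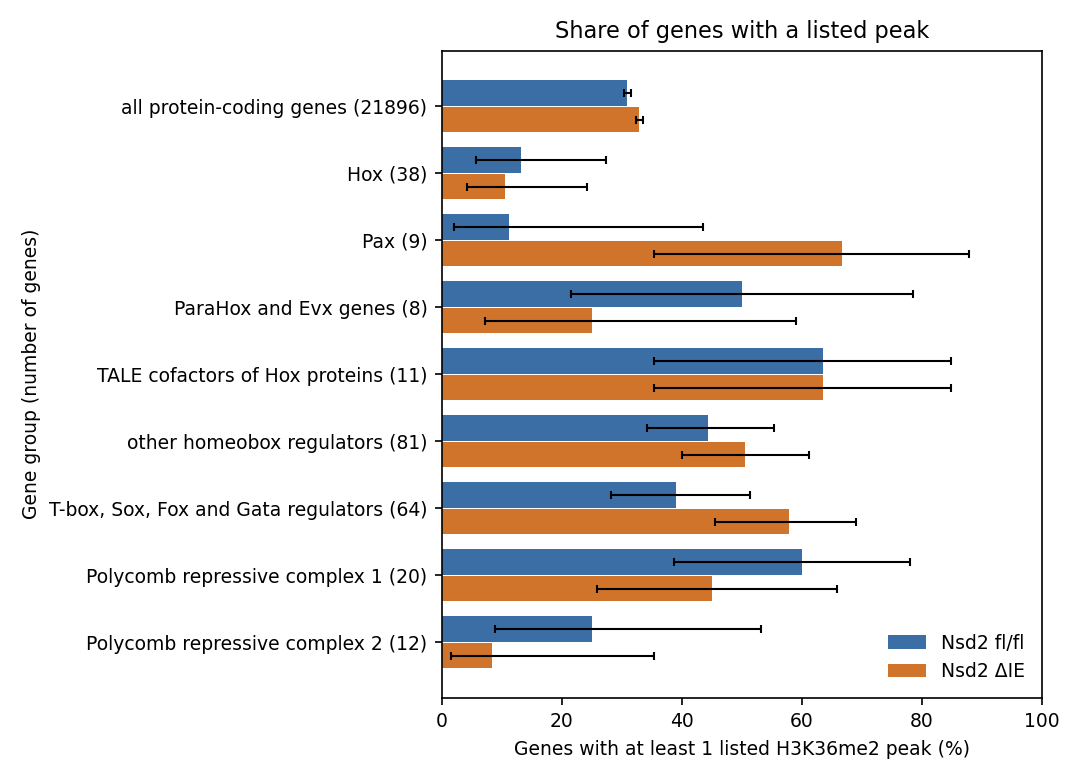
Bars give the percent of genes with at least 1 listed H3K36me2 peak in the Nsd2 fl/fl library (blue) and the Nsd2 ΔIE library (orange), for all protein-coding genes and for gene groups, with the number of genes in parentheses. Lines are 95% Wilson intervals for counting error. The Hox bars (13.2% and 10.5%) end left of the bars for all genes (30.9% and 32.9%), and the Pax bars are far apart (11.1% and 66.7%).

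By cluster, a peak in at least 1 library was listed for 2 of 10 genes of HoxA, 1 of 10 of HoxB, 3 of 9 of HoxC and 1 of 9 of HoxD. In HoxA, Hoxa10 had a peak in both libraries and Hoxa2 in Nsd2 ΔIE, and Hoxa3, Hoxa4, Hoxa5, Hoxa6, Hoxa7, Hoxa9, Hoxa11 and Hoxa13 had none. In HoxB, Hoxb13 alone had a peak, in Nsd2 fl/fl, and the 9 genes from Hoxb1 to Hoxb9 had none. In HoxC, Hoxc13 had a peak in Nsd2 fl/fl, Hoxc12 in Nsd2 ΔIE and Hoxc4 in both, and Hoxc5, Hoxc6, Hoxc8, Hoxc9, Hoxc10 and Hoxc11 had none. In HoxD, Hoxd10 alone had a peak, in Nsd2 fl/fl, and Hoxd1, Hoxd3, Hoxd4, Hoxd8, Hoxd9, Hoxd11, Hoxd12 and Hoxd13 had none. By position along the body axis, 2 of the 22 genes of groups 1 to 8 had a peak in at least 1 library (Hoxa2 and Hoxc4), and 5 of the 16 genes of groups 9 to 13 did (Hoxa10, Hoxb13, Hoxc12, Hoxc13 and Hoxd10). The shares were 9.09% and 31.2%, where 43.3% of all protein-coding genes had a peak in at least 1 library. By library, they were 4.55% and 25.0% in the Nsd2 fl/fl control but 9.09% and 12.5% in Nsd2 ΔIE. Pax3, which acts in the neural crest and early muscle, Pax4, which acts in the making of beta cells, and Pax9, which acts in teeth and thymus, had no listed peak.

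The share of genes with a peak was higher among longer genes, and the families differ in length. The Hox genes had a median length of 3722 bp, the Pax genes of 55049 bp and all protein-coding genes of 17149 bp. Of protein-coding genes under 5 kb, 14.8% had a peak in the Nsd2 fl/fl control and 16.0% in Nsd2 ΔIE. Of those of 50 kb or more, 43.4% and 46.2% had one. The 23 members under 5 kb were all Hox genes, and 1 of them had a peak in the Nsd2 fl/fl control and 2 in Nsd2 ΔIE. The 5 members of 50 kb or more were all Pax genes, and 1 and 4 of them had a peak. Among genes under 10 kb, 3 of 32 Hox genes (9.38%) had a peak in each library, against 20.2% and 21.9% of all protein-coding genes. Of the 6 Hox genes of 10 kb or more, 2 (33.3%) had a peak in the Nsd2 fl/fl control, where 37.0% of all did, and 1 (16.7%) in Nsd2 ΔIE, where 39.1% did. Other regulators under 10 kb stood above these shares. Of 49 other homeobox genes under 10 kb, 38.8% and 44.9% had a peak, and of 44 T-box, Sox, Fox and Gata genes under 10 kb, 34.1% and 54.5%. These groups were matched for length but not for the distance to neighbouring genes, which are close in the Hox clusters.

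**Figure D2:**
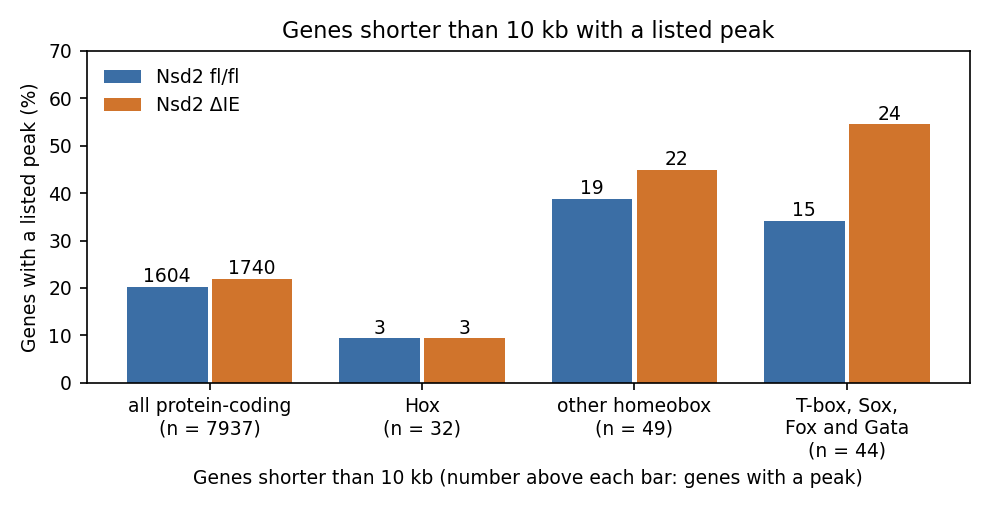
Bars give the percent of genes shorter than 10 kb with a listed peak in Nsd2 fl/fl (blue) and Nsd2 ΔIE (orange), and the number above a bar counts these genes. The Hox bars stand at 9.38% in both libraries (3 of 32 genes), lower than the bars of all protein-coding genes (20.2% and 21.9%) and of the other regulator groups.

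Hoxa10, a posterior gene used in the lumbar region and the female reproductive tract, was the only one of the 47 genes with annotated peaks that overlapped between the libraries. In Nsd2 fl/fl its peak spanned chr6:52209876-52214254 in the positions of the list, 4379 bp, across the transcription start site (TSS), with a summed signal of 29972, stronger than 63.9% of the list. In Nsd2 ΔIE it spanned chr6:52212035-52215535, 3501 bp, ending 116 bp upstream of the TSS, with a summed signal of 22985, stronger than 65.9% of that list. The peaks shared 2220 bp, and the log2 ratio of covered length, Nsd2 ΔIE over Nsd2 fl/fl, was -0.32. This equals the median of -0.32 over the 7870 genes with a peak in both libraries, against which the other log2 ratios, printed without centring, can be read. The place of the peak in the strength order of its list was thus close in both libraries. The window around its TSS is shown because the Nsd2 fl/fl peak covered it and the Nsd2 ΔIE peak covered its upstream part. The 300 bases run from 250 bases before the TSS to 50 after it, 5′ to 3′ on the minus strand, chr6:52234890-52235189 of GRCm38.p6, from RefSeq, with each CG pair, the target of DNA methylation, in capitals. The positions of the lists differ from those of this build, so they cannot be set side by side.
Hoxa10: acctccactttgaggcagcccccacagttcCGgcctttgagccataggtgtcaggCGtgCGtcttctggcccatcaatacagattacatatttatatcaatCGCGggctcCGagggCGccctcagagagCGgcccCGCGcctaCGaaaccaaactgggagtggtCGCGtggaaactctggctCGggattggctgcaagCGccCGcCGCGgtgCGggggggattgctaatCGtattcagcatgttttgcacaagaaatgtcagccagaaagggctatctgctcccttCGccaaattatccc
The window held 21 CG pairs, and 36.5% of 17491 protein-coding genes had as many or more in theirs. A CG pair reads the same on both strands.

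Hoxa2, at the other end of the HoxA order, patterns the hindbrain and the pharyngeal arches. It had no peak in the Nsd2 fl/fl control and 1 in Nsd2 ΔIE, chr6:52139819-52143822, 4004 bp, which lay across the TSS and reached 1992 bp past it. The summed signal of 21401 was stronger than 56.6% of the Nsd2 ΔIE list and lay below 21783, the lowest value in the Nsd2 fl/fl list, though the lists share no known scale. The same window of Hoxa2, minus strand, chr6:52164782-52165081 of GRCm38.p6, is shown because this peak lay across it, and as a second HoxA start site to set beside that of Hoxa10.
Hoxa2: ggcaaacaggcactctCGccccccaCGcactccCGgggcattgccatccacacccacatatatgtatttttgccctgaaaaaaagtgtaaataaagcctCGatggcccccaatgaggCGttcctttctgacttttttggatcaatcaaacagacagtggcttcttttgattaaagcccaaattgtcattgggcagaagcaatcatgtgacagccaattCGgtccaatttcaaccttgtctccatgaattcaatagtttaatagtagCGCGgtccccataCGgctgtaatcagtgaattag
It held 9 CG pairs, and 61.5% of protein-coding genes had as many. Of the 47 genes, 29 matched an entry of the promoter table, with 4 to 45 CG pairs and a median of 17.0, against 15.0 for all protein-coding genes. The 7 matched genes with a promoter peak had a median of 13, and the 19 without a listed peak had a median of 15.0.

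The other Hox peaks were each listed in 1 library or lay at different places. Hoxb13, the most posterior gene of HoxB, is known for its use in the prostate and the lining of the distal colon. Its peak in Nsd2 fl/fl, chr11:96075251-96080407, was 5157 bp wide with a summed signal of 26310 and lay 4735 bp upstream of the TSS, outside the cluster. Hoxc13, needed for hair keratins, had in Nsd2 fl/fl a peak of 4275 bp with a summed signal of 22998, chr15:102829510-102833784, across its TSS. Hoxc12, its neighbour, had in Nsd2 ΔIE a peak of 3384 bp with a summed signal of 16721, chr15:102840296-102843679, which ended 1582 bp before the TSS. These peaks of neighbouring genes did not overlap. The Hoxc12 peak was stronger than 2.77% of its list and lay 1.01 times over the lowest value listed. Hoxd10, used in the motor neurons and bones of the hindlimb, had in Nsd2 fl/fl a peak of 5479 bp with a summed signal of 28690, chr2:74509191-74514669, that lay almost wholly before the TSS and ended 52 bp past it.

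Hoxc4, an anterior gene of HoxC, had peaks in both libraries that did not meet. In Nsd2 fl/fl a peak of 5648 bp, chr15:102926634-102932281, with a summed signal of 24336, began 103 bp after the TSS of the transcript named there. In Nsd2 ΔIE the peaks lay at the far end of the gene. One, of 2956 bp with a summed signal of 21034, chr15:102944904-102947859, shared 378 bp with the gene as the lists place it. The other, of 7675 bp, chr15:102951370-102959044, lay beyond its 3′ end, in the noncoding gene Gm30528. With a summed signal of 41365 it was stronger than 94.7% of the Nsd2 ΔIE list and was the strongest and widest of the 12 Hox and Pax peaks there. The covered length annotated to Hoxc4 was 5648 bp in the Nsd2 fl/fl control and 10631 bp in Nsd2 ΔIE, a log2 ratio of 0.91, while inside the gene itself it was 5648 bp and 378 bp.

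**Figure D3:**
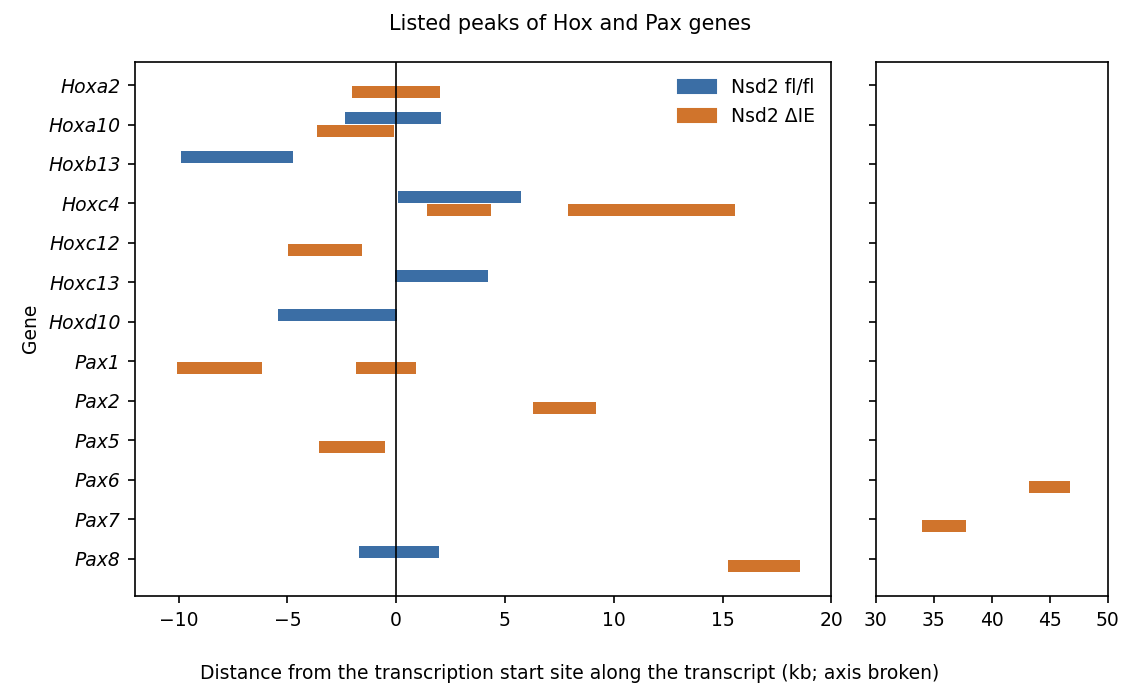
Bars show the listed peaks of the 13 Hox and Pax genes with a peak in Nsd2 fl/fl (blue) and Nsd2 ΔIE (orange), by distance in kb from the TSS of the transcript that the list names, upstream to the left, on a broken axis. For Hoxc4 the lists name transcripts with different TSSs, so its bars line up here although the peaks do not overlap in the genome. The Pax1 peaks are also named for transcripts with different TSSs, so the gap between its bars is not that in the genome. The Hoxa10 bars are the only pair of 1 gene that overlaps in the genome.

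Counted by position instead of by name, windows drawn around the clusters held 8 peaks in the Nsd2 fl/fl library and 4 in the Nsd2 ΔIE library. Windows were set between genes that the lists place at or beside the ends of the clusters: from Hoxa2 to Evx1 (151 kb), from Hoxb13 to Gm11529 (253 kb), from Hoxc13 to the end of Hoxc4 (116 kb) and from Gm52593 to Mtx2 (321 kb). HoxA held 3 peaks in Nsd2 fl/fl, at 5730596B20Rik, Hoxa10 and upstream of Evx1, which covered 9.04% of the window, and 2 in Nsd2 ΔIE, at Hoxa2 and Hoxa10, which covered 4.97%. HoxB held 1 peak in the Nsd2 fl/fl control (1.76%) and 0 in Nsd2 ΔIE. HoxC held 2 peaks in each library, covering 8.53% and 3.25%. HoxD held 2 in Nsd2 fl/fl (3.36%), at Hoxd10 and upstream of Mtx2, and 0 in Nsd2 ΔIE. Over the 841 kb of the 4 windows there were 8 peaks in Nsd2 fl/fl, 9.52 per Mb with 4.61% covered, beside 8.15 per Mb and 4.20% on the autosomes. In Nsd2 ΔIE there were 4, or 4.76 per Mb with 1.34% covered, beside 9.59 per Mb and 3.59%. These values were not set against the share of Hox genes with a peak, because listed peaks helped to place the windows. They rest on 8 and 4 peaks. With the strongest 50% of each list the windows held 3 in each library, and with equal numbers of peaks they held 8 and 3. The windows were drawn with the listed peaks in view, and the lists place a gene only where it is the nearest gene to some listed peak. Evx1 and Mtx2, which end the HoxA and HoxD windows, had a listed peak in Nsd2 fl/fl alone, and both peaks were counted. Peaks annotated to Hox genes but past a window edge were not counted. These were the Hoxb13 peak in Nsd2 fl/fl (5157 bp) and the wider Hoxc4 peak in Nsd2 ΔIE (7675 bp). The densities and the order of the libraries therefore follow in part from the choice of windows.

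**Figure D4:**
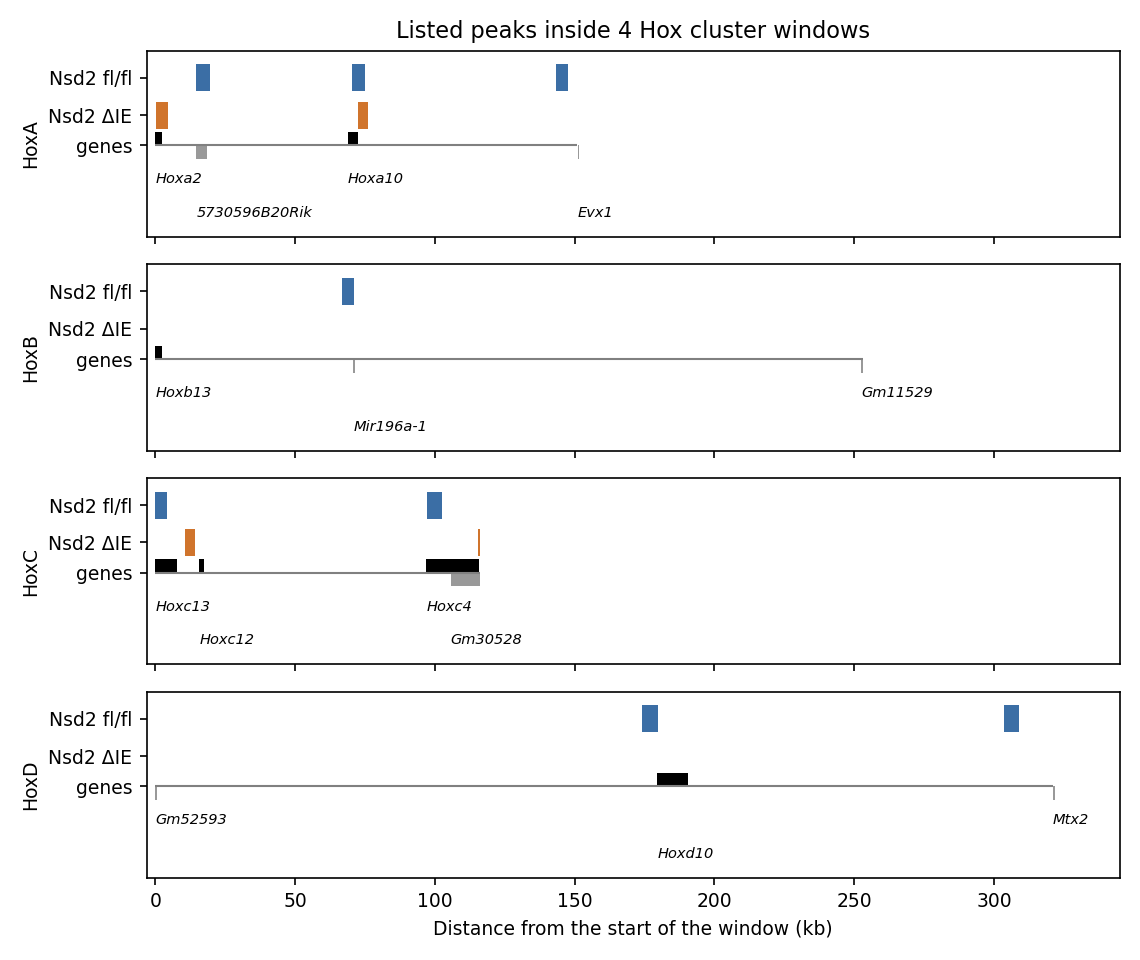
Each panel shows 1 Hox cluster window by distance in kb from its start, with listed peaks in Nsd2 fl/fl (blue) and Nsd2 ΔIE (orange) and, on the bottom line, the genes that the lists place there (black, Hox genes; grey, others), so Hox genes without a listed peak are not drawn. Nsd2 fl/fl has 8 peaks and Nsd2 ΔIE 4, and the 4 lie in HoxA and HoxC.

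The HoxB peak lay at the microRNA gene Mir196a-1, 4452 bp with a summed signal of 23894, chr11:96151848-96156299. It was annotated to no Hox gene. The clusters carry the miR-196 and miR-10 genes between their Hox genes, and miR-196 is known to repress Hox messages such as that of Hoxb8. The mature sequences are shown to tell these families apart, from RefSeq (GRCm38.p6), 5′ to 3′, with the seed, bases 2 to 8, in capitals.
mmu-miR-196a-5p: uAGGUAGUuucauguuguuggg
mmu-miR-196b-5p: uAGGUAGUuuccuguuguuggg
mmu-miR-10a-5p: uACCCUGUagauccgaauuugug
mmu-miR-10b-5p: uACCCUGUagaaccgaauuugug
The miR-196 members share one seed and the miR-10 members another. Among Mir196a-1, Mir196b, Mir10a and Mir10b, Mir196a-1 alone had a listed peak, and Mir196a-2, the HoxC copy that yields the same mature miR-196a-5p, had none. Of 18 noncoding RNA genes in and around the clusters, 2 (11.1%) had a peak in Nsd2 fl/fl (Mir196a-1 and Halr1, 4214 bp) and 0 in Nsd2 ΔIE. Of all genes of the gene table, whatever their type, 24.1% and 26.3% did. Of 17 genes beside the clusters, 5 (29.4%) had a peak in the Nsd2 fl/fl control and 1 (5.88%) in Nsd2 ΔIE, where 30.9% and 32.9% of all protein-coding genes did. Smug1, a DNA repair enzyme beside HoxC, had 9409 bp in the Nsd2 fl/fl control and none in Nsd2 ΔIE, and so did Nfe2 (5844 bp), Mtx2 (5304 bp) and Evx1 (4447 bp). Calcoco1 had 5119 bp and 3806 bp.

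Among the Pax genes, Pax8, the regulator of the thyroid and of the early kidney, had a peak in both libraries, at different places. In Nsd2 fl/fl the peak, chr2:24363629-24367311, was 3683 bp wide with a summed signal of 22895 and lay across the TSS. In Nsd2 ΔIE it lay 15248 bp into the gene, chr2:24347048-24350363, 3316 bp wide with a summed signal of 16881. The log2 ratio of covered length was -0.15, so similar lengths lay at different places. Pax1, which acts in the sclerotome and the thymus, had no peak in the Nsd2 fl/fl control and 2 in Nsd2 ΔIE. One, chr2:147205074-147207847, was 2774 bp wide with a summed signal of 18255 and lay across a TSS. The other, chr2:147193763-147197677, was 3915 bp wide with a summed signal of 17597. It lay 6173 bp upstream of the TSS of a different Pax1 transcript, the one that the list names for it. The start sites of Pax8 (minus strand, chr2:24475550-24475849) and Pax1 (plus strand, chr2:147364744-147365043) are shown in the same way, as those a Pax peak lay across.
Pax8: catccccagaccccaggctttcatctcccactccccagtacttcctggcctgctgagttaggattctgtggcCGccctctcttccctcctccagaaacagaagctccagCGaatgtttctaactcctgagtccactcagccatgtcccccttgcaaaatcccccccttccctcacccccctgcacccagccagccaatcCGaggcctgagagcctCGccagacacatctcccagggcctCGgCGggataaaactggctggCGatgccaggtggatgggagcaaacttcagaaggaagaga
Pax1: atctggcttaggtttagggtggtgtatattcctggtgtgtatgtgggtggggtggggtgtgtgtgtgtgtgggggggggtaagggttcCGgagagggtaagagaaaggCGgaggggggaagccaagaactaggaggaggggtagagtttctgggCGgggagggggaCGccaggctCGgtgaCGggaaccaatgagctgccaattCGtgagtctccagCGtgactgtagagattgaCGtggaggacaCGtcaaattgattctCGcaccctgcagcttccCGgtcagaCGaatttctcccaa
Pax8 held 7 CG pairs and Pax1 held 13, and 66.3% and 54.0% of protein-coding genes had as many.

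The other Pax peaks were listed in Nsd2 ΔIE. Pax2, a regulator of the kidney and the optic nerve, had a peak of 2892 bp with a summed signal of 22726, chr19:44751654-44754545, in an intron 6309 bp after the TSS, stronger than 64.6% of the list. Pax5, which commits cells to the B lineage, had a peak of 3041 bp with a summed signal of 17515, chr4:44711205-44714245, ending 511 bp before the TSS. Pax6, which acts in the eye, the endocrine pancreas and hormone-making cells of the gut, had a peak of 3462 bp with a summed signal of 17635, chr2:105556055-105559516. It lay 43247 bp after the TSS, in an intron of Elp4, the next gene, whose introns are known to carry distant enhancers of Pax6. Pax7, the regulator of muscle stem cells, had an intron peak of 3759 bp, chr4:139522489-139526247. Its summed signal of 16581 was just over the lowest value listed, 16571. Of the 7 Pax peaks in Nsd2 ΔIE, 1 was among the stronger 50% of the list, and their median was stronger than 17.0% of it. The summed signals of 6 of these 7 were below the lowest value of the Nsd2 fl/fl list, as were 3 of the 5 Hox peaks in Nsd2 ΔIE and 59.1% of all peaks there, and no common scale between the lists is known.

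The nearest-gene rule also passed over most of what lay inside the long Pax genes. Pax5 spans 186 kb, and 7 peaks in the Nsd2 fl/fl control and 10 in Nsd2 ΔIE lay in it, covering 20.1% and 18.2% of it, yet the lists assign all of them to Gm12462 and Mir5120, small genes inside Pax5. They were spread over its introns and 3′ part, and in Nsd2 fl/fl a group of 3 lay between 25.354 and 46.195 kb from the 5′ end. Pax7 spans 94.9 kb and held 3 and 4 peaks (15.6% and 18.5%), of which 3 in each library were assigned to Gm42334. One of these in Nsd2 ΔIE was 8663 bp wide with a summed signal of 54833, stronger than 98.1% of the list. Pax8 spans 55.0 kb and held 4 and 2 peaks (24.0% and 9.65%). Pax2 had peaks in 1 library. It spans 81.4 kb and held 0 peaks in the Nsd2 fl/fl control and 5 in Nsd2 ΔIE (21.1%), 4 of them assigned to Mir6405 and 1700039E22Rik. Counted by position, then, the genes Pax5, Pax7 and Pax8 carried peaks in both libraries and Pax2 in 1. Of the 14 peaks inside these genes in the Nsd2 fl/fl control, 7 (50%) overlapped a peak of the other library, where 34.1% of all peaks did, 4 in Pax5, 2 in Pax7 and 1 in Pax8. Of the 21 in Nsd2 ΔIE, Pax2 included, 7 (33.3%) did, close to the 30.7% of all peaks there.

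**Figure D5:**
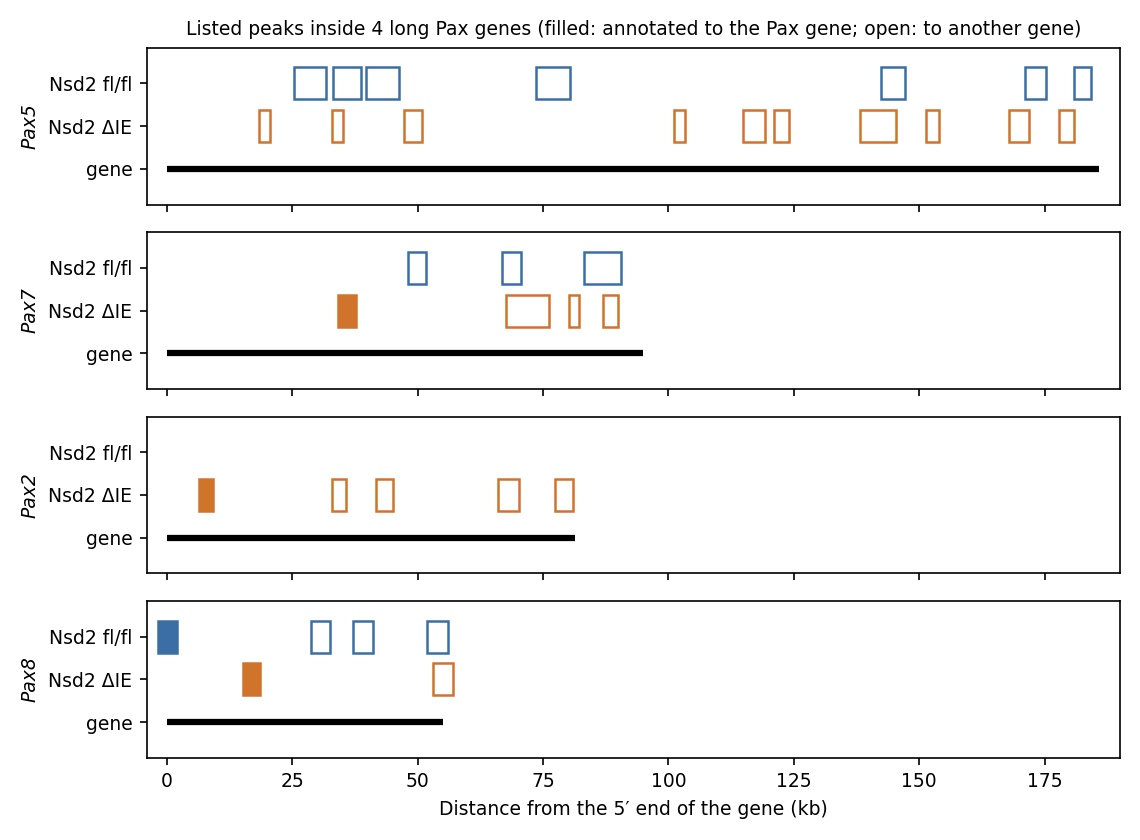
Listed peaks inside Pax5, Pax7, Pax2 and Pax8 in Nsd2 fl/fl (blue) and Nsd2 ΔIE (orange), by distance in kb from the 5′ end of the gene (black line). Filled boxes are annotated to the Pax gene and open boxes to another gene: the 17 boxes in Pax5 are open, and Pax2 has 5 boxes, all in Nsd2 ΔIE.

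Set beside the 2547 protein-coding genes of 50 kb or more that the lists place, whose median gene had 2 peaks in each library and 6.86% and 5.55% of its length covered, Pax5, Pax7 and Pax8 lay above the median in both libraries. Pax5 was covered more than 83.1% of the genes in the Nsd2 fl/fl control and 86.3% in Nsd2 ΔIE, Pax7 more than 76.1% and 86.7%, and Pax8 more than 87.9% and 67.8%. Pax2, without a peak in Nsd2 fl/fl, was covered more than 89.4% of the genes in Nsd2 ΔIE. The lists place a gene only where it is the nearest gene to some listed peak, so genes with no such peak are not among the 2547. Pax2, Pax5 and Pax7 are among them through a peak annotated to them in Nsd2 ΔIE alone, and Pax3, the other Pax gene of 50 kb or more, is not, so these places describe a chosen set. Of the shorter Pax genes, Pax1 had 1 peak in its body in Nsd2 ΔIE, which covered 21.1% of its 13.1 kb, and Pax6 had none in either library.

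Between the genotypes, the length covered by the peaks of a gene was counted as less or more in Nsd2 ΔIE past a log2 ratio of 0.5 in size, or where 1 library only had a peak. Of the 13 Hox and Pax genes with a peak, 3 had less length in Nsd2 ΔIE (Hoxb13, Hoxc13 and Hoxd10), against 43.3% of all 18187 genes with a peak, and 8 had more, against 39.7%. The 8 were Hoxa2, Hoxc12, Hoxc4, Pax1, Pax2, Pax5, Pax6 and Pax7, and Hoxa10 and Pax8 were within the limit. The 3 with less were Hox genes of groups 10 to 13, and 5 of the 8 with more were Pax genes. Except for Hoxc4, these counts rest on a peak being annotated to the gene in 1 library and not in the other. Several depend on that annotation. Inside Pax5 the covered length was 37364 bp in the Nsd2 fl/fl control and 33847 bp in Nsd2 ΔIE, inside Pax7 it was 14796 bp and 17517 bp, and inside Hoxc4 the order was the opposite of that by name. When a peak was also counted for the gene whose exon or intron holds it, 3 of the genes had less, where 42.5% of all genes did, 6 had more, where 39.4% did, and 4 were within the limit. With promoter peaks only 4 of 9 had less, where 49.2% of all did, and 4 had more, where 40.7% did. Of the 6 peaks annotated to Hox and Pax genes in Nsd2 fl/fl 1 (16.7%, 95% Wilson interval 3.01% to 56.4%) overlapped a peak of the other library, where 34.1% of all peaks did. Of the 12 in Nsd2 ΔIE 1 (8.33%, 1.49% to 35.4%) did, where 30.7% of all did. Both intervals hold the share of all peaks. That pair was the one at Hoxa10, and the shared peaks inside Pax5, Pax7 and Pax8 carry other names.

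As a group, the Hox and Pax peaks lay at promoters in larger part than all peaks of their list, and their median signal per bp was lower. In Nsd2 fl/fl, 5 of 6 (83.3%, 95% Wilson interval 43.6% to 97.0%) lay within 3 kb of a TSS, where 32.1% of all peaks did. In Nsd2 ΔIE 6 of 12 (50%, 25.4% to 74.6%) did, where 27.9% did, a share inside that interval. By family, 4 of 5 Hox peaks lay at promoters in each library. Of the 7 Pax peaks in Nsd2 ΔIE 2 (28.6%) did, about the 27.9% of all peaks. The median signal per bp was 5.31 in Nsd2 fl/fl, where that of all peaks was 6.14, and 5.37 in Nsd2 ΔIE, where that of all was 6.32. Over promoter peaks of the members only, it was 5.38 and 6.16, and the Pax peak in Nsd2 fl/fl had 6.22, above the median of its list. Of the 6 and 12 peaks, 0 and 1 were among the strongest 25% of their list by summed signal, and 2 and 5 among the stronger 50%. Their median width was 4768 bp and 3423 bp, beside the 4643 bp and 3426 bp of the lists.

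The regulators that work with Hox and Pax proteins, and the Polycomb and Trithorax proteins that act on these genes, were counted in the same way. The share of all protein-coding genes with a peak was 30.9% in the Nsd2 fl/fl control and 32.9% in Nsd2 ΔIE. Of 11 TALE homeobox genes, whose proteins bind DNA together with Hox proteins, 7 (63.6%) had a peak in each library. Pknox2 had 19493 bp in the Nsd2 fl/fl control and 13453 bp in Nsd2 ΔIE (log2 ratio -0.54), Meis3 had 10126 bp and 3145 bp (-1.69), and Pknox1 had 5909 bp and 6341 bp (0.10). Of the 8 ParaHox and Evx genes, relatives of the Hox genes outside or at the edge of the clusters, 4 and 2 had a peak. Cdx1, a regulator of the intestinal epithelium and of Hox genes, had 10071 bp and 3542 bp (-1.51), and Gsx1 had 6694 bp in Nsd2 fl/fl only. Of 25 partners and targets of Pax proteins, 14 (56.0%) and 8 (32.0%) had a peak. Of the 16 with a peak in either library 13 had less length in Nsd2 ΔIE and 3 more, where 43.3% and 39.7% of all genes with a peak did. Less outnumbered more also among genes of PRC1 (8 and 2), regulators of the intestinal epithelium (9 and 5), genes beside the Hox clusters (4 and 0), ParaHox and Evx genes (4 and 1), PRC2 (3 and 1) and TALE genes (3 and 1). The counts were 21 and 18 among other homeobox genes and 12 and 20 among T-box, Sox, Fox and Gata genes, 3 and 3 among Trithorax and H3K27 demethylase genes, 1 and 4 among markers of colon epithelium and 1 and 3 among those of enteric neurons and glia. These counts, like the shares of all genes, were made without centring on the median log2 ratio of -0.32. Genes with a peak in both libraries therefore fall more readily under less, as with Pknox2. Six3 had 16470 bp in Nsd2 fl/fl only, Eya1 had 10768 bp and 3005 bp (-1.84), the insulin gene Ins2 had 12388 bp and 3388 bp (-1.87), and Eya2 had 11446 bp and 16447 bp (0.52).

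Of 12 PRC2 genes, 3 (25.0%) had a peak in Nsd2 fl/fl (Ezh2, which carries the methyltransferase, Aebp2 and Jarid2) and 1 (8.33%) in Nsd2 ΔIE (Phf19). Of 20 PRC1 genes 12 (60.0%) and 9 (45.0%) had one. Rybp had 21712 bp and 8864 bp (log2 ratio -1.29), Cbx7 had 17654 bp and 7183 bp (-1.30), Phc2 had 13435 bp and 7578 bp (-0.83) and Kdm2b, which brings a PRC1 form to CG-rich DNA, had 12005 bp and 11343 bp (-0.08). Of 13 Trithorax and H3K27 demethylase genes, which act against Polycomb, 4 (30.8%) had a peak in each library, about the share of all protein-coding genes (30.9% and 32.9%). Kmt2b had 12739 bp in Nsd2 fl/fl only, the demethylase Kdm6b had 12884 bp in Nsd2 ΔIE only, Kmt2d had 4566 bp and 12995 bp (1.51), and Men1 had 4538 bp and 2945 bp (-0.62).

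The families closest to Hox and Pax by their role in development did not share the low count of the Hox genes. Of 81 other homeobox genes, 36 (44.4%) had a peak in the Nsd2 fl/fl control and 41 (50.6%) in Nsd2 ΔIE. Irx1 had 28268 bp and 27732 bp, Alx4 had 28041 bp and 14756 bp, Irx6 had 27510 bp and 15767 bp, and Lhx4 had 11390 bp and 24977 bp, each of them more than any Hox or Pax gene by annotation. Of 64 T-box, Sox, Fox and Gata genes, 25 (39.1%) and 37 (57.8%) had a peak. Foxf2, a regulator of gut mesenchyme, had 21194 bp and 4159 bp, Tbx4 had 17555 bp and 5757 bp, Gata6 had 16219 bp and 5043 bp, and Foxd2 had 3997 bp and 16341 bp. Of 20 regulators of the intestinal epithelium 12 (60.0%) had a peak in each library, where 30.9% and 32.9% of all protein-coding genes did. Among them were Isx with 34314 bp and 18686 bp and Hnf4a with 4122 bp and 11128 bp. The Hox genes lie close together in clusters, and a peak is named only for its nearest gene. The families were not matched for the spacing of their genes, and its part in the low Hox count was not tested. No test of the difference between these families and the Hox genes was made, since genes share clusters and libraries.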

How the data were processed

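H3K36me2 was measured by CUT&Tag in 1 colon library per genotype. Peak calling was done by the authors library by library, and the deposited lists give for each peak the position, width, nearest gene and transcript, distance to the TSS, genomic feature and a summed signal. This signal is the value the authors deposited, a whole number with no stated control, threshold or scaling, so signals were ranked within a list, and where they are set against the lowest value of the other list no common scale is known. The submitters' processing notes name Bowtie2, deepTools, SEACR and ChIPseeker without versions, and hg38, which the mouse genes of the lists contradict. The build of the lists is not given in the sources used here, so positions are printed as deposited.

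Peaks were assigned by the deposited annotation and promoters are its promoter class, up to 3 kb before or after a TSS. Gene names, types and lengths came from a RefSeq table of GRCm38.p6, which held 17571 of the 18187 names. Of 299 names in the other gene lists, 289 were in the table and counted. Covered length is the sum of peak widths per gene. Inside windows and gene bodies, only the bases within them were counted, with gene positions taken from the lists. Peaks overlapped at 1 bp or more. Python 3.11.15, pandas 2.3.3, numpy 2.4.6, scipy 1.17.1 and matplotlib 3.10.9 were used, and the functions were tested on simulated lists. Every Hox or Pax gene with a peak was named, and of each other list at most the 4 genes with the largest covered length, besides the genes beside the Hox clusters. Not every gene that this rule covers is reported here. Members and lists were chosen with earlier results of these data known. Alternatives covered the assignment of peaks, the promoter limit, the strength of peaks, equal numbers of peaks, the background, the log2 limit, centring and the overlap. The depth is unknown and sets no precision on a single peak.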

Additional observations from a re-analysis of the deposited data

How the results depend on the processing

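Several orders between the libraries depended on the processing. With the strongest 50% of each list, 2 members had a peak in the Nsd2 fl/fl control and 4 in Nsd2 ΔIE (all protein-coding genes 19.3% and 21.0%), and the Hox windows held 3 peaks in each library instead of 8 and 4. With promoter peaks only, 5 and 6 of the 47 members had a peak within 3 kb of a TSS (all 16.7% and 16.3%). Within 1 kb, 5 and 4 did (all 12.8% and 11.6%), which turns the order of 6 and 10. At either distance, the members lay closer to the share of all in both libraries than when every peak was counted. With promoter peaks within 3 kb, 4 members had less length in Nsd2 ΔIE, 4 more and 1 was within the limit. The median width in Nsd2 fl/fl was then 4379 bp, below that of its list. With equal numbers of peaks the windows held 8 and 3, 6 and 7 members had a peak (all 30.9% and 29.9%), 4 had less length (all 48.4%), 6 more (all 35.3%) and 1 was within the limit. The background share was 24.1% and 26.3% over all genes of the table and 26.8% and 28.7% over protein-coding genes no longer than the longest Hox gene. Alternatives chosen after seeing the data were autosomal genes (32.7% and 34.8%) and counting a peak also for the gene whose exon or intron holds it, which gave 34.3% and 37.0% of protein-coding genes, 8 and 10 members, and 3 members with less length, 6 with more and 4 within the limit. The cause of these moves was not tested beyond what each alternative leaves out. No paired analysis was possible because 1 library stands for each genotype. Leaving out a library leaves nothing to compare. The lists hold only peaks over a lower limit, so weaker signal at Hox and Pax genes was not measured.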
